A study of Mus musculus with 4 samples.

Results

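The miR-30 family is a set of microRNAs (miRNAs), small RNAs that pair with messenger RNAs and lower their output. Its 5 members, mmu-miR-30a-5p, mmu-miR-30b-5p, mmu-miR-30c-5p, mmu-miR-30d-5p and mmu-miR-30e-5p, were taken by probe name from the 1265 mouse miRNA probes of each array, and each had 1 spot. MiRNAs were measured on 4 microarrays, 1 each for esophagus at 28 weeks of age, esophagus at 46 weeks, serum at 28 weeks and serum at 46 weeks. All 4 samples came from L2-IL-1β mice kept under SPF (specific pathogen free) conditions and carried the disease label Barrett's esophagus. The mice carry a transgene in which an Epstein-Barr virus promoter, active in the squamous epithelium of the upper digestive tract, drives human interleukin-1β. Mice without the transgene were not analysed here, and the sources used here do not give the number of mice behind each RNA.

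Members of the family share their seed, the stretch of the miRNA that does most of the pairing with a target, so they are expected to reach largely the same messenger RNAs. In epithelial cells the family is known for repressing Snai1, a driver of the change from epithelial to mesenchymal state, and Beclin 1, a component of autophagy. Its hairpins lie mostly as neighbouring pairs, and many tissues express all members. Each hairpin gives a 5p strand, here the member, and a 3p strand with another seed.

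The mature sequences below, from RefSeq (build GRCm38.p6), show what members share and where they differ. Of the 5 members, 3 had an entry in the table used, and mmu-miR-30b-5p and mmu-miR-30d-5p are named only. Capitals mark the seed, bases 2 to 8 counted from the 5′ end.
mmu-miR-30a-5p: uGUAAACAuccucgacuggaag
mmu-miR-30c-5p: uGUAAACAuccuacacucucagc
mmu-miR-30e-5p: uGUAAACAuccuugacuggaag
mmu-miR-384-5p: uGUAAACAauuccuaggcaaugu
The last is no member by name but carries the same seed. These 4 were the only ones of 1679 mature mouse miRNAs in that table with the seed GUAAACA. Counted from the 5′ end, miR-30a-5p and miR-30e-5p had 21 of 22 bases in common and differed by C13U alone, with the base of miR-30a-5p given first. Over the same 22 bases miR-30a-5p and miR-30c-5p had 17 in common, with the substitutions C13A, G14C, G18C, G19U and A20C. How far the spot of one member also read its near-identical relatives was not tested.

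The sequence of miR-30a-5p lies at chr1:23272274-23272295 on the plus strand and that of miR-30e-5p at chr4:120772660-120772681 on the minus strand. MiR-30c-5p is made from 2 hairpins, at chr1:23291714-23291736 on the plus strand (Mir30c-2) and chr4:120769584-120769606 on the minus strand (Mir30c-1), and its single spot cannot separate them. Mir30a and Mir30c-2 thus share a chromosome, and Mir30c-1 and Mir30e lie together within the span of the protein-coding gene Nfyc, which encodes a subunit of a transcription factor. Mir30b and Mir30d also share a chromosome.

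The arrays read 1 colour, and a value below is the net signal, which is the median intensity of the spot minus the mean of the 1664 BLANK spots of that array, in arbitrary linear units. A miRNA counted as detected when its spot lay above the mean plus 2 SD of both the BLANK and the No Probe spots. In net signal that limit was between 4.87 and 9.06 over the 4 arrays, and 573 and 678 miRNAs were detected in esophagus and 764 and 589 in serum (28 weeks first). With 1 array per group there was no replicate check, no test and no p-value. The SD beside a value covers spot noise only, estimated from No Probe and spike-in spots, and leaves out variation between mice, extractions and hybridisations. Tissue and serum were extracted with different kits (mirVana and miRNeasy Serum/Plasma), so the effect of the kit and that of the sample type cannot be told apart. Fewer cells of a type and less of an miRNA per cell likewise cannot be told apart.

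All 5 members were detected on all 4 arrays, far above the limit, with net signals between 199.9 and 655. Net signals of different probes are not set against each other, because each probe binds and labels with its own efficiency.

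The net signal of miR-30a-5p was 398 in esophagus at 28 weeks, 391 in esophagus at 46 weeks, 439 in serum at 28 weeks and 352 in serum at 46 weeks. That of miR-30b-5p was 431, 466, 433 and 394 in the same order. Both had their lowest value in serum at 46 weeks, and the highest was 1.25 and 1.18 times the lowest, respectively.

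MiR-30c-5p had net signals of 490.5 and 538 in esophagus and 599 and 639 in serum, 28 weeks first. For miR-30d-5p they were 470.5 and 461 in esophagus and 562 and 655 in serum. These were the members with both serum values above both esophagus values. MiR-30d-5p spanned the widest range of the family, with its highest value 1.42 times its lowest.

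MiR-30e-5p gave 217 and 199.9 in esophagus and 259 and 212 in serum. Its value was lower at 46 than at 28 weeks in both sample types, and the 2 sample types overlapped. The spot-noise SD of a member's net signal lay between 7.30 and 36.2 on these arrays.

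**Figure D1:**
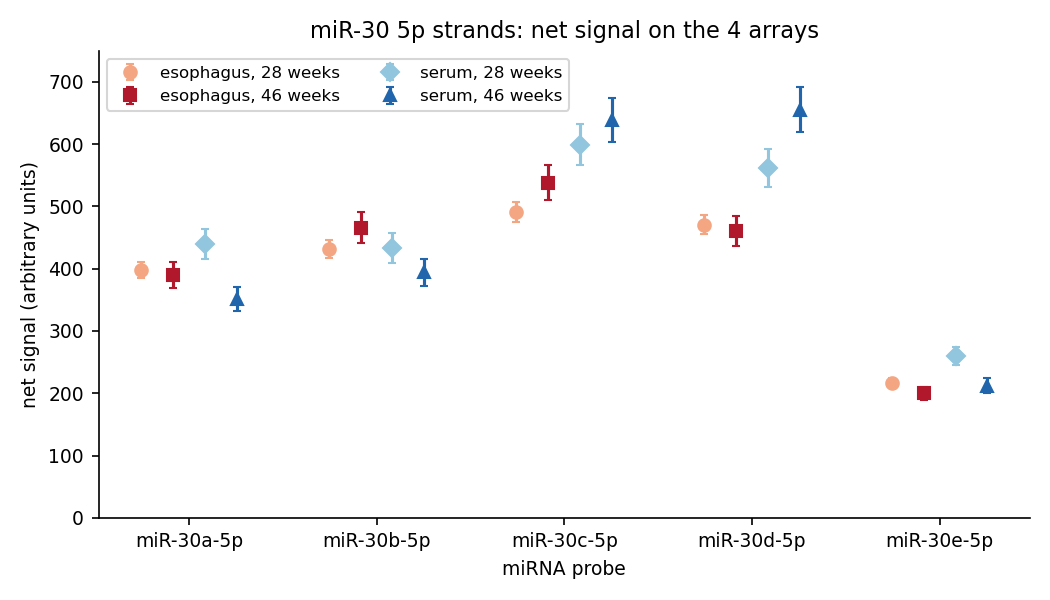
Net signal (arbitrary linear units) of the 5 members on each of the 4 arrays, 1 point per array, with bars of 1 spot-noise SD. Every point lies between 199.9 and 655, and miR-30c-5p and miR-30d-5p are the members with both serum points above both esophagus points.

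To compare arrays, net signals were put on a log2 scale and quantile-normalized, which gives the arrays the same spread of values. After this step over all 4 arrays, the level of a member varied by 0.19 (miR-30a-5p), 0.26 (miR-30b-5p), 0.48 (miR-30c-5p), 0.74 (miR-30d-5p) and 0.49 (miR-30e-5p) log2 units from its lowest to its highest array. The median of these ranges was 0.48, beside 1.08 over the 485 miRNAs detected on all 4 arrays, whose ranges ran from 0.11 to 8.54. Each member therefore varied less over the 4 arrays than the median miRNA did. Spot noise in log2 units is larger for dim miRNAs, and the 485 were not matched to the members in brightness. The same limit holds for the shares of all miRNAs given below.

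The first comparison set 46 against 28 weeks in esophagus, the age step over which disease advances in this model. All 5 members were within 2-fold between the ages, where 0.542% of the 554 miRNAs detected on both arrays were at least 2-fold apart. None of the 5 reached 1.5-fold either, against 6.5% of all. The log2 difference, 46 minus 28 weeks, was -0.34 (SD 0.09) for miR-30e-5p, a level 1.27-fold lower at 46 weeks. It was -0.19 for both miR-30a-5p and miR-30d-5p, -0.068 for miR-30b-5p and 0.043 for miR-30c-5p, each with an SD of 0.09. Only miR-30e-5p was more than 3 SD of spot noise from 0. The family median was -0.19, beside 0.00 over all 554. Single markers of other cell types moved between the same 2 arrays. The liver miRNA miR-122-5p went from a net signal of 20.8 to 107, the highest log2 difference of all 554 at 2.12. MiR-144-3p, a red cell miRNA, went from 80.9 to 8.01, the lowest at -3.54, while miR-451a, the defining miRNA of red cells, read 86.9 and 88.5. The median over the 4 erythrocyte miRNAs detected at both ages was -0.18. The part of these cell types in the differences of the members was not tested.

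For miR-30a-5p that difference turned with the background method. The intensity around its spot (the local background) read 252 on the esophagus array at 28 weeks and 52.5 at 46 weeks, beside array medians of 51.4 and 51.7. Around the spot of miR-30c-5p it read 134 and 248, and around those of the other members it also lay above the array medians. With the local reading taken off by the normexp method, which models signal over background, the log2 difference of miR-30a-5p was 0.46 in place of -0.19. That of miR-30c-5p was -0.48 in place of 0.043. Scaling turned signs too. MiR-30c-5p was below 0 under 5 of 9 alternatives, among them scaling to the median (-0.17), to bright miRNAs (-0.080) or to spike-ins (-0.11), and the authors' table (-0.13). MiR-30b-5p was 0.11 with no scaling. MiR-30d-5p and miR-30e-5p were lower at 46 weeks under all 9 alternatives, at -0.33 to -0.030 and -0.52 to -0.12 log2 units. With no scaling, miR-30d-5p was within 1 SD of spot noise from 0.

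The second comparison set the same ages against each other in serum. Again 0 of 5 members reached 2-fold, where 11.5% of the 581 miRNAs detected on both serum arrays did. At 1.5-fold the count was also 0 of 5, beside 30.3% of all miRNAs. MiR-30d-5p had the largest difference, 0.31 log2 units (SD 0.11) higher at 46 weeks, or 1.24-fold. MiR-30c-5p was 0.17 higher and miR-30b-5p 0.072 higher, while miR-30a-5p differed by -0.093 and miR-30e-5p by -0.11, each with an SD of 0.11. The last 4 lay within 2 SD of spot noise from 0. The family median was 0.072 and that of all 581 miRNAs 0.023.

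The sign of the serum differences depended on the scaling. When arrays were scaled to their spike-in spots instead, all 5 members were lower at 46 weeks, between -0.91 for miR-30a-5p and -0.37 for miR-30d-5p, and the median of all miRNAs stood at -0.72. Relative to the median of all miRNAs, miR-30d-5p and miR-30c-5p were higher at 46 weeks under all 9 alternatives (by 0.27 to 0.64 and by 0.15 to 0.32), and miR-30e-5p was lower under all 9 (at -0.56 to -0.094). These 9 are not separate checks, as a single factor per array cancels in a value relative to that median. Scaling to the median, to bright miRNAs or to spike-ins, no scaling and the authors' table thus gave nearly the same value, 0.36 for miR-30d-5p. The authors' deposited table, which is scaled to its own median, gave 0.096 for miR-30d-5p, -0.034 for miR-30c-5p and -0.26, -0.45 and -0.42 for miR-30b-5p, miR-30a-5p and miR-30e-5p.

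Markers of other cell types moved between the serum arrays as well. The erythrocyte list (5 of 5 detected at 28 weeks, 4 of 5 at 46 weeks) had a summed net signal of 43865 at 28 weeks and 28560 at 46 weeks, most of it from miR-451a, at 36871 and 23648. The liver miRNA miR-122-5p read 591 and 70.0. The striated muscle list (4 of 4 and 3 of 4 detected) summed to 868 and 163. The leukocyte list, with 4 of 4 detected at both ages, summed to 1197 and 1973. Its miRNAs did not move together, as miR-223-3p went from 526 to 1306 and miR-142-3p from 33.9 to 55.7. MiR-150-5p read 450 and 449, and miR-142-5p went from 187 to 161. The part of these cell types in the serum differences of the members was likewise not tested.

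**Figure D2:**
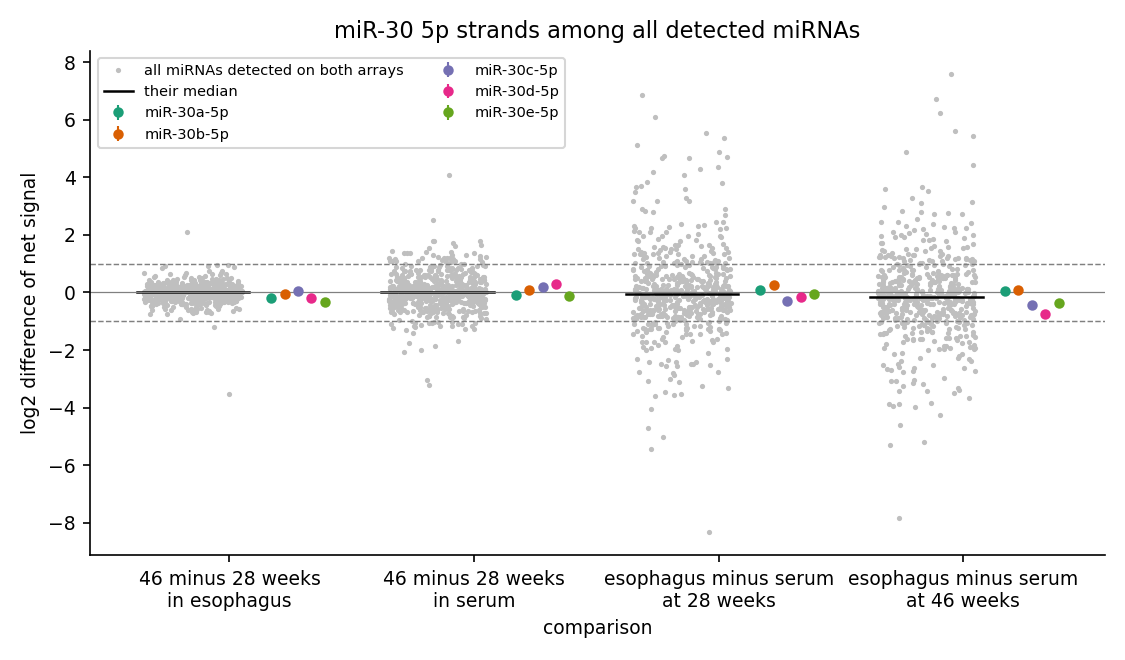
Log2 difference of net signal in the 4 comparisons. Coloured points with bars of 1 spot-noise SD (mostly within the symbol) are the members, grey points are all miRNAs detected on both arrays, spread sideways to be visible, black lines are their medians, and dashed lines mark 2-fold. All coloured points lie between the dashed lines, and miR-30d-5p at 46 weeks lies farthest from 0, at -0.74 for esophagus minus serum.

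Esophagus and serum were then compared at each age. At 28 weeks 0 of 5 members reached 2-fold and 0 of 5 reached 1.5-fold, where 36.6% and 56.8% of the 549 miRNAs detected on both arrays did. The log2 difference, esophagus minus serum, was 0.26 for miR-30b-5p, 0.087 for miR-30a-5p, -0.060 for miR-30e-5p, -0.17 for miR-30d-5p and -0.31 for miR-30c-5p, with an SD of 0.09 each. MiR-30b-5p, higher in esophagus, and miR-30c-5p, higher in serum, were more than 2 SD of spot noise from 0. Relative to the median of all miRNAs both kept their sides under all 9 alternatives, miR-30b-5p at 0.15 to 0.32 and miR-30c-5p at -0.27 to -0.030. For miR-30c-5p that value was -0.030 with scaling to the median, bright miRNAs or spike-ins, with no scaling and in the authors' table. This is within 1 SD of spot noise from 0. The unadjusted differences of both members changed sign in 2 of the 9. The family median was -0.060 and that of all miRNAs -0.048.

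At 46 weeks the members lay farther apart. MiR-30d-5p was lower in esophagus by 1.67-fold, with a log2 difference of -0.74 (SD 0.11), and was the only member of the 5 to reach 1.5-fold, against 57.6% of the 543 miRNAs detected on both arrays. At 2-fold the count was 0 of 5, against 37.6% of all. MiR-30c-5p differed by -0.44 and miR-30e-5p by -0.38, both lower in esophagus, while miR-30a-5p at 0.059 and miR-30b-5p at 0.087 were within 1 SD of 0. All 3 of the lower members stayed lower in esophagus under all 9 alternatives, with miR-30d-5p between -0.89 and -0.47, miR-30c-5p between -0.90 and -0.21 and miR-30e-5p between -0.39 and -0.047. MiR-30e-5p was within 1 SD of spot noise from 0 under 3 of the 9, namely local background, scaling to the median and no scaling. The median of all miRNAs in this comparison was -0.15, and relative to it miR-30d-5p stood at -0.59, miR-30c-5p at -0.29 and miR-30e-5p at -0.23, with miR-30a-5p at 0.21 and miR-30b-5p at 0.24.

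Markers of several cell types differed between tissue and serum. MiR-205-5p, a marker of squamous epithelium, had net signals of 1429 and 1508 in esophagus and 35.4 and 179 in serum, and miR-203-3p, which acts in squamous differentiation, 1638 and 1945 against 18.7 and 62.7. Both were thus high in samples labelled Barrett's esophagus. The columnar and glandular list, made up of 4 miRNAs, summed to 98.3 (3 of 4 detected) and 147 (4 of 4) in esophagus and higher, to 179 and 160.3 (4 of 4 each), in serum. Within this list miR-194-5p went the other way after quantile normalization, 0.26 and 1.28 log2 units higher in esophagus at 28 and 46 weeks. The others were lower in esophagus wherever they were detected on both arrays. Smooth muscle miRNAs (2 of 2 detected) summed to 5195 and 5261 in esophagus, and striated muscle miRNAs (4 of 4) to 7826 and 9180. Erythrocyte miRNAs were higher in serum, with list medians of -3.50 and -4.03 log2 units for esophagus minus serum at 28 and 46 weeks.

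Because members sit on the same array, the difference of one member between 2 arrays can be set against that of another. Quantile normalization moves each level by its rank, so these gaps still depend on whether that step was used. A single factor per array cancels in them. The alternatives with such a factor, no scaling and the authors' table therefore give nearly the same gap and are not separate checks. Each comparison gives 10 such pairs. The number of pairs more than 2 SD of spot noise apart was 2 in esophagus and 2 in serum between the ages, 4 between esophagus and serum at 28 weeks and 7 at 46 weeks. With net signals that no rank step had changed, or with the authors' deposited table, these numbers were 0, 5, 1 and 6, with the same SDs.

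Between the ages in serum, the difference of miR-30d-5p stood above that of miR-30a-5p by 0.40 log2 units (SD 0.16), and this gap lay between 0.36 and 0.54 under the 9 alternatives. MiR-30e-5p stood below miR-30d-5p there, at -0.41 (SD 0.16), with a range of -1.21 to -0.37. In esophagus the gap between miR-30d-5p and miR-30a-5p was -0.0011, and the 2 pairs past 2 SD both held miR-30e-5p, against miR-30c-5p at -0.38 and against miR-30b-5p at -0.27 (SD 0.13 each), with ranges of -0.47 to -0.035 and -0.38 to -0.21. Without the rank step they were at -0.25 and -0.23, within 2 SD. For esophagus against serum at 46 weeks, miR-30d-5p stood below miR-30b-5p by -0.83 and below miR-30a-5p by -0.80 (SD 0.16 each), with ranges of -1.07 to -0.75 and -0.87 to -0.66. The same pair of miR-30d-5p and miR-30b-5p was at -0.43 (SD 0.13) at 28 weeks, in the same direction, with a range of -0.43 to -0.13 and a value of -0.25 without the rank step.

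Members from neighbouring hairpins can be set side by side in the same way. MiR-30b-5p and miR-30d-5p, whose hairpins share a chromosome, differed from each other by 0.23 (SD 0.16) in the serum age comparison, within 2 SD, or by 0.36 without the rank step, past 2 SD, and by the -0.83 given above for esophagus against serum at 46 weeks. MiR-30a-5p and miR-30c-5p, of Mir30a and Mir30c-2, were -0.50 (SD 0.16) apart in the latter comparison, with miR-30c-5p the lower in esophagus. For Mir30c-1 and Mir30e, miR-30e-5p minus miR-30c-5p was 0.057 (SD 0.16) there, within 1 SD, with a range of 0.053 to 0.82. Between the ages it was the -0.38 given above in esophagus and -0.28 (SD 0.16) in serum. The single spot of miR-30c-5p serves both of these hairpin pairs and cannot separate them. The sequence pair miR-30a-5p and miR-30e-5p, which differ by C13U alone, had age differences of -0.19 and -0.34 in esophagus and -0.093 and -0.11 in serum.

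**Figure D3:**
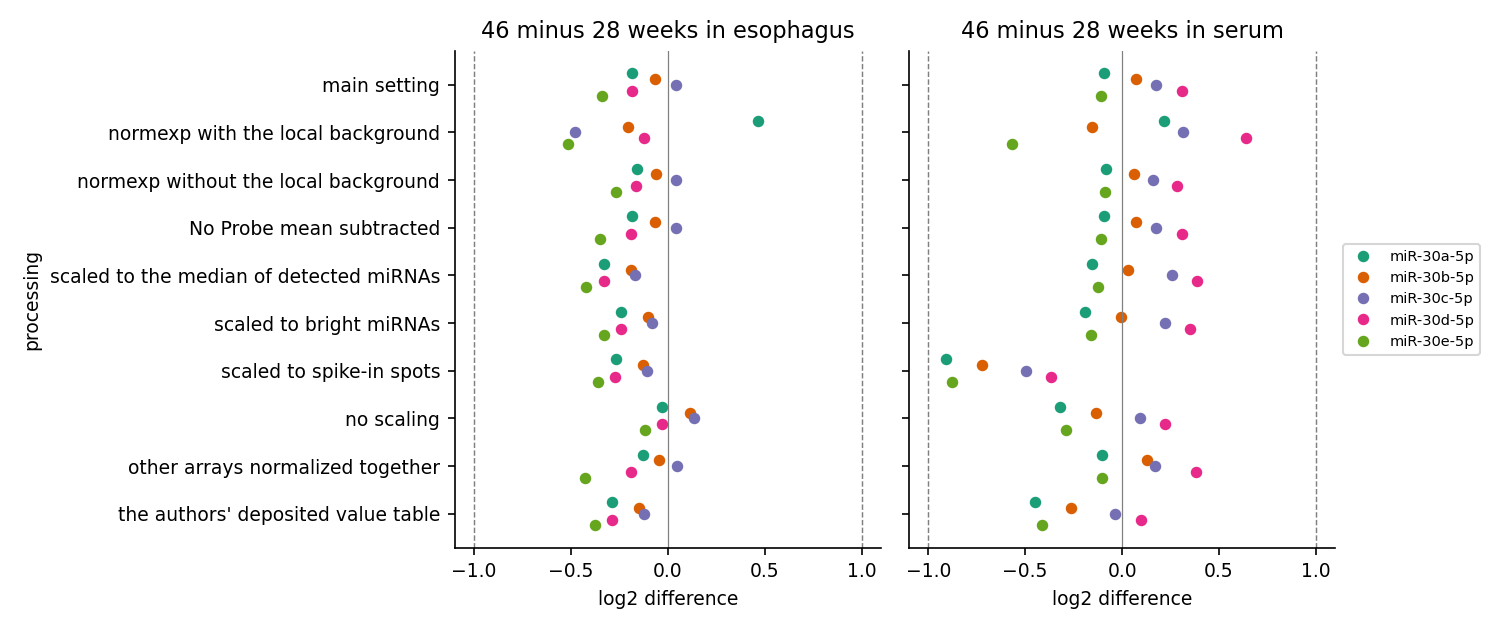
Log2 difference between 46 and 28 weeks of each member in esophagus (left) and serum (right) under the main setting and the 9 alternatives, 1 row per setting, with dashed lines at 2-fold. No point reaches 2-fold, the local background moves miR-30a-5p in esophagus to 0.46, and scaling to spike-in spots moves all members in serum below 0.

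The other strand of each hairpin was also on the arrays. RefSeq (GRCm38.p6) entries were found for 4 of the 6 3p strands. They are shown because they fall into 2 seeds, in capitals, that differ from the seed of the members.
mmu-miR-30a-3p: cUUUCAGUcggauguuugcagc
mmu-miR-30e-3p: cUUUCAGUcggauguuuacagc
mmu-miR-30c-1-3p: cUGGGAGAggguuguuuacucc
mmu-miR-30c-2-3p: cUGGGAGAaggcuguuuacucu
The first pair differed by G18A, and the second pair by G9A, U12C and C22U, with the first-named miRNA's base given first. The whole Mir30c-1 hairpin, at chr4:120769534-120769622 on the minus strand, shows how the strands sit, with miR-30c-5p and then miR-30c-1-3p in capitals.
Mir30c-1: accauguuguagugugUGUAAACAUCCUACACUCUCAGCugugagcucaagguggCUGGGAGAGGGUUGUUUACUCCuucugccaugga

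MiR-30c-1-3p was the only 3p strand detected on both arrays that was at least 2-fold apart between tissue and serum in the main setting. That is 1 of 3 such strands at each age, beside 36.6% of all miRNAs detected on both arrays at 28 weeks and 37.6% at 46 weeks. The net signal of miR-30c-1-3p was 11.1 and 12.7 in esophagus and 85.1 and 73.5 in serum at 28 and 46 weeks, so the sample types did not overlap. Both esophagus values lay near the detection limits of those arrays, 9.06 and 7.57 in net signal, which limits the precision of the fold sizes. The log2 difference, esophagus minus serum, was -2.77 (SD 0.28) at 28 weeks and -2.62 (SD 0.25) at 46 weeks, or 6.83-fold and 6.16-fold. It was at least 2-fold under 9 of 9 alternatives at 28 weeks (-3.33 to -1.01) and 7 of 9 at 46 weeks (-3.10 to -0.75). Its sister strand of the same seed, miR-30c-2-3p, read 5.47 and 12.7 in esophagus and 7.72 and 5.11 in serum, and was below the limit on the first and last of these arrays. MiR-30c-5p, the other strand of the same hairpin, differed between tissue and serum by only -0.31 and -0.44, in the same direction. Erythrocyte miRNAs were also higher in serum on these arrays, with a summed net signal of 1138 and 1272 in esophagus against 43865 and 28560, and their part in this difference was not tested.

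MiR-30b-3p was detected in esophagus, at 15.9 and 23.6, and not in serum, at 4.31 and 0.79. Under the main setting it was set against the dimmest detected miRNA of the serum array. By that bound it was at least 3.32-fold higher in esophagus at 28 weeks and at least 2.55-fold higher at 46 weeks. These bounds carry no SD, were not recomputed under the alternatives and can change with the scaling or background method. MiR-30d-3p was below the limit on all 4 arrays, with net signals from -0.073 to 5.14.

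The strands miR-30a-3p and miR-30e-3p were detected on all 4 arrays. MiR-30a-3p read 31.5 and 36.7 in esophagus and 38.5 and 23.7 in serum, which made it 0.49 log2 units lower (SD 0.18) at 46 weeks in serum and left -0.043 (SD 0.15) in esophagus. MiR-30e-3p read 29.5 and 37.6 in esophagus and 27.2 and 23.2 in serum. The log2 difference of miR-30e-3p, esophagus minus serum, was 0.46 (SD 0.15) at 28 weeks and 0.54 (SD 0.19) at 46 weeks. Relative to the median of all miRNAs it was 0.51 and 0.69. For miR-30a-3p the difference was 0.085 and 0.49, or 0.13 and 0.64 relative to that median. Without that adjustment, neither strand reached 1.5-fold in any of the 4 comparisons under the main setting. Under the alternatives the serum age difference of miR-30a-3p lay between -1.29 and -0.17, past 2-fold in 1 of 9 (spike-in scaling), and the difference of miR-30e-3p between esophagus and serum at 28 weeks lay between -0.27 and 0.58.

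**Figure D4:**
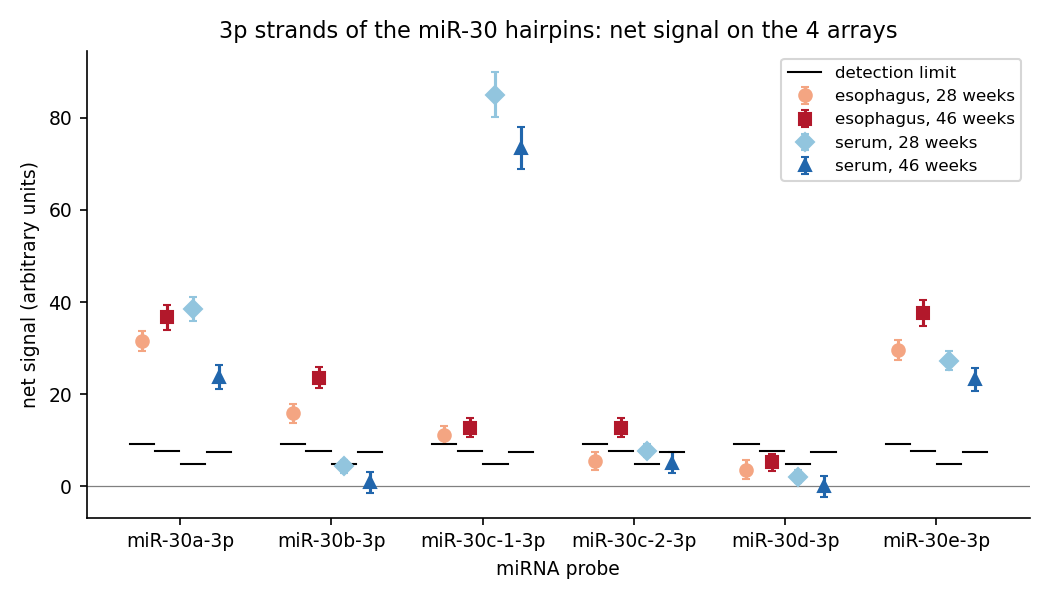
Net signal of the 6 3p strands on the 4 arrays, 1 point per array, with bars of 1 spot-noise SD and a short black line at the detection limit of each array. MiR-30c-1-3p is at 85.1 and 73.5 in serum against 11.1 and 12.7 in esophagus, and miR-30d-3p lies below the line on all arrays.

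MiR-384-5p, which shares the seed of the members, was below the detection limit on all 4 arrays, with net signals between -1.67 and 0.63.

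Over all 4 arrays, the miRNAs whose centred log2 profile lay closest to the mean profile of the members, by root mean square distance over 477 miRNAs, were miR-669f-5p (0.040), miR-331-3p (0.045), miR-1839-5p (0.047), miR-455-3p (0.050) and miR-574-3p (0.063). All 5 were dim, with net signals between 10.3 and 40.1. The members themselves lay 0.12 to 0.18 from their own mean. A likeness over 4 arrays is a description, and many flat profiles are close to one another.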

How the data were processed

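Per the file headers, the deposited scanner files hold the median intensity of each spot and of the area around it, on a linear scale, with readings at 3 scanner gains. No background had been taken off them and no normalization applied. Per the labels' protocols, RNA was labelled with Hy5 for Toray 3D-Gene arrays. The authors' deposited table also holds intensity values: set against the scanner values, its columns fitted a BLANK-subtracted spot reading (to within 0.042 of the BLANK mean) scaled so that listed miRNAs of each array had a median of 25. Why some miRNAs have no entry in it is not stated.

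Here the BLANK mean was subtracted, values under 1 were set to 1, and log2 values were quantile-normalized with limma 3.58.1 in R 4.3.3 over the 1265 miRNA probes, on the 2 arrays of a sample type for age and on all 4 for esophagus against serum. Local background was left out of the main setting, because some spots, those of members among them, had raised readings around them. It was tried as an alternative. Spot-noise SD was built from the SD over 97 No Probe spots and the relative SD over 16 spike-in spots, 3.23% to 5.51%, carried through log2. The number of arrays limits the precision. Tables and figures were made with Python 3.11.15, pandas 2.3.3, numpy 2.4.6 and matplotlib 3.10.9. The steps were tested on simulated data.

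The 9 alternatives were normexp (offset 50) with and without local background, the No Probe mean subtracted, scaling to the median of detected miRNAs, to miRNAs of net signal at least 100 or to spike-in spots, no scaling, the other set of arrays normalized together, and the authors' table. Named were all members, all 3p strands, the 5 miRNAs of most similar profile and the marker lists. Members and lists were chosen with earlier results of these data known.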

Additional observations from a re-analysis of the deposited data

Results flagged for a closer look

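MiR-30d-5p had age differences of opposite sign in the 2 sample types, each more than 2 SD of spot noise from 0. In esophagus the log2 difference, 46 minus 28 weeks, was -0.19, while serum gave 0.31. Each value rests on 1 array per age, and whether the 2 differ was not tested. In esophagus it stayed below 0 under all 9 alternatives, but at -0.030 with no scaling it was within 1 SD of spot noise from 0. In serum it was above 0 under 8 of 9 and at -0.37 with arrays scaled to spike-in spots. The serum value was 0.096 in the authors' table, within 1 SD of spot noise from 0, and 0.22 with no scaling, within 2 SD.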

How the results depend on the processing

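No paired analysis was possible because each group had 1 array. Of 180 member differences recomputed under the 9 alternatives, 0 reached 2-fold, and the largest was 0.91 log2 units in size. The family median between ages in esophagus, -0.19, was -0.33 with scaling to the median, -0.029 with no scaling and -0.29 in the authors' table. In serum, 0.072 became 0.22 with local background, -0.72 with spike-in scaling, -0.14 with no scaling and -0.26 in the authors' table. For esophagus minus serum at 28 weeks, -0.060 became 0.19 with scaling to the median, 0.20 to bright miRNAs, -0.65 to spike-ins, -0.26 with none and -0.19 in the authors' table. At 46 weeks, -0.38 became -0.078 with local background, -0.047, -0.13 and -0.13 with those 3 scalings, -0.085 with none and -0.15 in the authors' table, and the median of the 3p strands, 0.49, became 0.17 with normexp without local background. The cause of these shifts was not tested.

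Counts of all miRNAs at least 2-fold apart also moved. Between ages in esophagus, 3 became 6 with local background, 1 with normexp without it, 16 with the No Probe mean, 8 with no scaling, 6 with all 4 arrays normalized together, 23 with the BLANK limit alone and 36 at 1.5-fold. In serum, 67 became 20 and 18 with normexp with and without local background, 172 with spike-ins and 176 at 1.5-fold. For esophagus against serum, 201 and 204 (28 and 46 weeks) became 96 and 96 with local background, 107 and 102 without, and 312 and 313 at 1.5-fold. The split into higher and lower followed the scaling: 39 and 28 in serum became 5 and 167 with spike-ins, 29 and 36 with none and 22 and 48 in the authors' table. At 28 weeks, 109 and 92 became 140 and 75 with scaling to the median, 141 and 71 to bright miRNAs, 57 and 202 to spike-ins, 87 higher of 213 with none and 91 and 110 in the authors' table. In esophagus, 1 and 2 became 4 and 2 with local background or all 4 arrays, 0 and 1 with normexp without it and 7 and 1 with no scaling. Strands near the detection limit, such as miR-30c-2-3p and, in esophagus, miR-30c-1-3p, are limited by signal over background.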
